A study of Mus musculus with 2 samples.

Results

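The genes described here are the nuclear genes that encode the core machinery of mitochondrial DNA transcription and replication: Tfam, Tfb1m, Tfb2m, Polrmt, Tefm, Mtpap, Polg, Polg2, Ssbp1 and Top1mt. They were chosen by function, from a list of symbols, and not by their measured values. All 10 were found by Ensembl identifier, 10 of the 43346 Ensembl genes in the tables. The tissue was the heart of a single female C57BL/6J mouse, an inbred laboratory strain, taken as an adult of 10 weeks, with no treatment or altered allele named in the labels. Polyadenylated RNA, extracted with a kit made for fatty tissue, was sequenced as technical replicates 1 and 2 of biological replicate 1, with a stated size range of 350 to 450. Replicate 2 was added in May 2015 and replicate 1 had been published before it. With 1 animal and no second group, the only comparison possible is between the 2 libraries, and the time at which each was made cannot be told apart from any other difference between them.

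Mitochondria keep a small circular genome of their own, but every protein that copies or transcribes it is encoded in the nucleus. TFAM wraps and bends the DNA and, with TFB2M, lets the RNA polymerase POLRMT open a promoter. TEFM then keeps the polymerase on the template, and MTPAP adds the tails of the transcripts. The polymerase POLG with its accessory subunit POLG2 replicates the DNA, with the single-strand binding protein SSBP1 on the exposed strand. TOP1MT relaxes supercoils. Heart muscle, which depends on oxidative phosphorylation, carries many copies of this genome.

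The libraries held 22775991 counts in replicate 1 and 19685821 in replicate 2, estimated per gene and not necessarily whole. The 37 genes of the mitochondrial genome took 61.7% of counts in replicate 1 and 25.3% in replicate 2. After these genes and 11 nuclear genes nearly identical to parts of them were set aside, 5028154 and 12654724 counts remained. Levels below are nuclear TPM: the deposited TPM, an abundance per unit of transcript length, rescaled over those remaining genes to the same fixed sum in each library. All 7 heart muscle markers examined (Myh6, Myl2, Tnnt2, Actc1, Tnni3, Pln and Ryr2) exceeded 1 nuclear TPM in both libraries, with a sum of 43554 in replicate 1 and 79829 in replicate 2. The genes listed for other cells differed in both directions as sums. Their sums in replicates 1 and 2 were 2639 and 1063 for 5 fibroblast genes, 1453 and 784 for 5 smooth muscle and pericyte genes and 327 and 410 for 5 endothelial genes. They were 17.3 and 175 for 5 macrophage genes and 1001 and 12857 for 5 red cell genes. The 5 genes listed for brown fat (Ucp1, Cidea, Elovl3, Plin5 and Cox8b) summed to 141 and 3792. The 5 listed for skeletal muscle (Acta1, Myh4, Myh1, Tnni2 and Actn3) summed to 3.74 and 203. A sum does not show which of its genes differed, and whether these genes are limited to the named cells was not tested. Of 5 lung genes, 4 were at 0 in both libraries. The part of other cell types in the results below was not tested.

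The members fall into a GC-rich and a GC-poor set, and their ratios between the libraries, given below, moved with that property. GC content, the share of G and C bases averaged over a gene's transcripts by their abundance, was above 50% in 4 members, at 58.1% in Polrmt, 55.2% in Top1mt, 53.8% in Polg and 51.2% in Polg2. It was below 46% in the other 6, from 42.1% in Tfb2m to 45.9% in Tfb1m. Over all nuclear counts, the mean GC content was 45.0% in replicate 1 and 50.5% in replicate 2. The contrast is visible in the sequence itself. The middle 120 coding bases of the leading consensus coding transcript are printed for Polrmt and Top1mt, which were nearly missing from replicate 1, and for Tfam and Tfb2m, which led it. Transcripts are those of GENCODE release M21 on mm10, all 4 from the minus strand, and capitals mark runs of at least 4 G or C bases.
Polrmt-201, within chr10:79739826-79740157: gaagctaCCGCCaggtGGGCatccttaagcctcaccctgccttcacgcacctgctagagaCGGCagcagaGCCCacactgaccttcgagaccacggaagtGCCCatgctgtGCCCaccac
Top1mt-201, within chr15:75667596-75667931: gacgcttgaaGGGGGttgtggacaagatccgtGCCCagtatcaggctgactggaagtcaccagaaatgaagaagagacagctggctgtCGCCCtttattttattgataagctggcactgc
Tfam-201, chr10:71234879-71234998: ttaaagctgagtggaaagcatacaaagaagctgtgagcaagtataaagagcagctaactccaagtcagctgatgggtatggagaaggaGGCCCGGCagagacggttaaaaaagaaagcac
Tfb2m-201, within chr1:179537744-179542322: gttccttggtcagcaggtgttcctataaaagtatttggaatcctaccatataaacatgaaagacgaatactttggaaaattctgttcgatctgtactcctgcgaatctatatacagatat
The word within marks stretches that join exons across an intron. The windows hold 6 such runs in Polrmt, 3 in Top1mt, 1 in Tfam and 0 in Tfb2m, and their GC contents are 62.5%, 50.8%, 45.8% and 35.8%. Over the whole coding sequence the runs number 4.25 per 100 bases in Polrmt, 3.04 in Top1mt, 1.51 in Tfam and 2.19 in Tfb2m. The GC content of that sequence is 61.1%, 55.4%, 45.3% and 45.5%. The windows thus show the members' order by GC content of the transcripts. For Tfam and Tfb2m they do not show the order over the coding sequence, and they overstate the gap for Tfb2m.

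Tfam (chr10:71225464-71238280, minus strand), the packaging and activating factor of the nucleoid, had 529 counts in replicate 1 and 615 in replicate 2. Its nuclear TPM was 247 and 52.3, 150 ± 138 (SD, n = 2 technical libraries). Replicate 1 was the higher. Tfam stood above 95.4% of nuclear genes with a count there and above 85.1% in replicate 2. Tfb2m (chr1:179528055-179546267, minus strand), the factor that melts the promoter with POLRMT, had 1263 and 1066 counts and a nuclear TPM of 335 and 66.2. It was the most abundant member of replicate 1, the second in replicate 2, and again higher in replicate 1. Its relative Tfb1m (chr17:3519256-3557781, minus strand) methylates the small ribosomal RNA of mitochondria. Tfb1m had 55 and 136 counts, and its nuclear TPM of 20.6 and 15.8 was among the steadiest of the members.

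Polrmt (chr10:79736123-79746581, minus strand), the only RNA polymerase of the organelle, had 3 counts in replicate 1 and 521 in replicate 2. Its nuclear TPM was 4.71 and 43.4. Replicate 1 therefore measured Polrmt hardly at all, at a count equal to the 3 counts that a reading of 0 would allow. Its effective length, the number of positions a fragment could start from, was deposited as 276 bases in replicate 1 and 1588 in replicate 2, a value that follows the estimated mix of transcripts. Over the length of the leading consensus transcript in both libraries, the level was 0.359 and 19.3. Tefm (chr11:80136678-80142175, minus strand), the elongation factor, had 125 and 284 counts and a nuclear TPM of 60.7 and 35.4. Mtpap, the poly(A) polymerase of mitochondrial RNA, had 435 and 372 counts and a nuclear TPM of 75.4 and 19.98. Both were higher in replicate 1 on this scale.

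Of the replication genes, Polg (chr7:79446231-79466362, minus strand), the catalytic subunit of the DNA polymerase, had 79 counts in replicate 1 and 1221 in replicate 2. Its nuclear TPM was 15.8 and 65.0, so that it stood above 62.1% of nuclear genes in replicate 1 and 87.8% in replicate 2. Polg2 (chr11:106768253-106779537, minus strand), the processivity subunit, had 27 and 90 counts and a nuclear TPM of 5.26 and 7.67. It was low in both. Ssbp1 (chr6:40471352-40484700, plus strand), the single-strand binding protein, had 280 and 451 counts and a nuclear TPM of 140 and 73.1, and was the most abundant member of replicate 2. Top1mt (chr15:75657035-75678800, minus strand), the mitochondrial type I topoisomerase, had 3 and 101 counts and a nuclear TPM of 0.693 and 7.80. It was the lowest member of replicate 1 and, with Polg2, at the bottom of replicate 2.

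**Figure D1:**
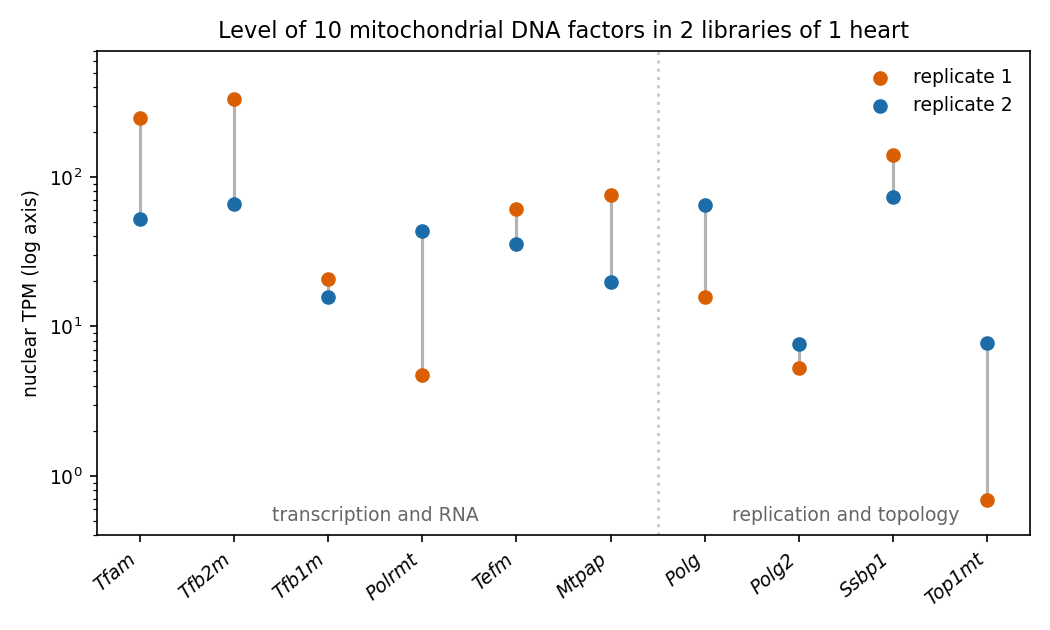
Nuclear TPM (log axis) of the 10 members in replicate 1 and replicate 2, 1 point per library. Genes of transcription and RNA are on the left and genes of replication and topology on the right. Tfb2m, Tfam, Ssbp1, Tefm, Mtpap and Tfb1m are higher in replicate 1, and Polg, Polrmt, Polg2 and Top1mt in replicate 2.

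Together the members took 0.0557% of the nuclear counts of replicate 1 (95% Wilson interval 0.0536% to 0.0578%) and 0.0384% of those of replicate 2 (0.0373% to 0.0395%). These and later intervals reflect counting error alone, because reads of the same molecule are not independent. Their summed nuclear TPM was 905 and 387, 2.34-fold higher in replicate 1. Tfb2m, Tfam and Ssbp1 made up 79.8% of that sum in replicate 1 and 49.6% in replicate 2, where Polg and Polrmt joined them. At least 1 nuclear TPM was reached in both libraries by 9 of the 10, all but Top1mt. Polrmt reached it in replicate 1 on 3 counts, as many as Top1mt had there. Over the length of the leading consensus transcript, Polrmt was at 0.359 in that library. On the deposited TPM, which mitochondrial RNA lowers, 7 of 10 reached 1 TPM in both.

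Ranked by mean log2 of nuclear TPM + 0.1, the order ran from Tfb2m (7.22 ± 1.65, SD over 2 libraries) through Tfam (6.83 ± 1.58), Ssbp1 (6.66 ± 0.66), Tefm (5.54 ± 0.55), Mtpap (5.28 ± 1.35), Polg (5.01 ± 1.44), Tfb1m (4.18 ± 0.27), Polrmt (3.85 ± 2.25) and Polg2 (2.69 ± 0.38) to Top1mt (1.32 ± 2.35). Most steps of this order were not resolved. Only 2 of its 9 neighbouring pairs differed by more than the SD of their difference, Tfb2m over Tfam by 0.39 ± 0.07 and Ssbp1 over Tefm by 1.12 ± 0.11 on the log2 scale. Over the lengths of the leading consensus transcripts both orders held, but the gap of Tfb2m over Tfam was wider. Tfb2m and Tfam were then at 238 and 56.8 in replicate 1 and at 62.4 and 20.4 in replicate 2. In the other 7 neighbouring pairs the sign of the difference was opposite in the 2 libraries. Polg against Mtpap is an example, with Mtpap above Polg by 2.25 in replicate 1 and below it by 1.70 in replicate 2.

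Rounded counts of the libraries were compared gene by gene with edgeR's exact binomial test (two-sided, TMM-scaled library sizes, with a chi-square test for totals too large for it, which no member reached), for the 13182 genes whose counts summed to 20 or more, with Benjamini-Hochberg adjustment over all of them. Called genes had an adjusted p under 0.05 and differed 2-fold or more. The test covers counting error, compares these libraries and not conditions, and has no replicate check. All 10 members were tested. The GC-rich Polrmt, Top1mt and Polg were called higher in replicate 2, 3 of 10 beside 38.4% of all tested genes. Tfb2m, Mtpap and Tfam were called lower, 3 of 10 beside 27.2% of all tested genes. That makes 6 of 10 called either way beside 65.6%. Both shares are near the background, and the members' median log2 ratio was -0.23 beside 0.21 over all tested genes.

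The log2 ratio, replicate 2 over replicate 1 with 0.5 counts added, was 5.75 for Polrmt (95% exact interval 4.41 to 8.25, adjusted p = 7.57e-64). As a fold that is 53.8 (21.3 to 305), an imprecise value because it rests on 3 counts. For Top1mt it was 3.39 (2.01 to 5.90, adjusted p = 3.47e-10), and for Polg 2.47 (2.15 to 2.83, adjusted p = 1.62e-80), or 5.55-fold. Polg is thus the called increase measured with usable counts in both libraries. Tfb2m had a ratio of -1.71 (-1.83 to -1.60, adjusted p = 2.52e-174), Mtpap of -1.70 (-1.90 to -1.49, adjusted p = 6.99e-60) and Tfam of -1.25 (-1.42 to -1.08, adjusted p = 1.56e-45). These correspond to levels 3.28-fold, 3.24-fold and 2.38-fold higher in replicate 1. Ssbp1 passed the adjusted p but not the fold, at -0.78 (-1.001 to -0.562, adjusted p = 6.84e-12). Tefm at -0.29 (-0.59 to 0.03), Tfb1m at -0.17 (-0.63 to 0.32) and Polg2 at 0.25 (-0.37 to 0.94) had intervals that include 0.

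The members' ratios followed their GC content. Across the 10 genes Pearson's r between GC content and log2 ratio was 0.96 and Spearman's rho 0.99, beside 0.85 and 0.90 across 13155 tested genes with a GC value. Genes are not independent replicates, and all these points share the same libraries. Among all tested genes with a GC content under 43%, where Tfb2m, Mtpap and Tfam lie, the median log2 ratio was -1.89. Between 43% and 46% it was -1.20, below the ratios of the 3 members there, Ssbp1, Tefm and Tfb1m. It was 0.46 between 49% and 52%, where Polg2 lies, 1.73 between 52% and 55%, where Polg lies, and 3.76 at 55% and above, where Polrmt and Top1mt lie. Subtracting the median trend with GC content reduced the SD of the members' ratios from 2.48 to 0.55 and changed the sign of 7 of 10. Polrmt at 1.76 (adjusted p = 0.0147) and Polg at 1.06 (adjusted p = 1.38e-11) were still called higher, 2 of 10 beside 14.2% of all tested genes. Top1mt at 0.85 was no longer called (adjusted p = 0.392), and 0 of 10 were called lower, beside 8.55%, which makes 2 of 10 called either way beside 22.8%. Tfb2m moved to 0.14, Mtpap to 0.16 and Tfam to 0.43, where the median of all tested genes in that fit was 0.21. The ratios between libraries that remained were 0.91 for Tfb1m, 0.87 for Tefm, 0.40 for Ssbp1 and -0.11 for Polg2. All these values depend on the GC content assigned to each gene. In Polrmt and Polg the coding sequence of the leading consensus transcript has a higher GC content, 61.1% and 57.9%. For Polg-201 the sequence used has 7837 bases and the deposited transcript 5277. Whether the calls of Polrmt and Polg hold under other GC values was not tested.

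**Figure D2:**
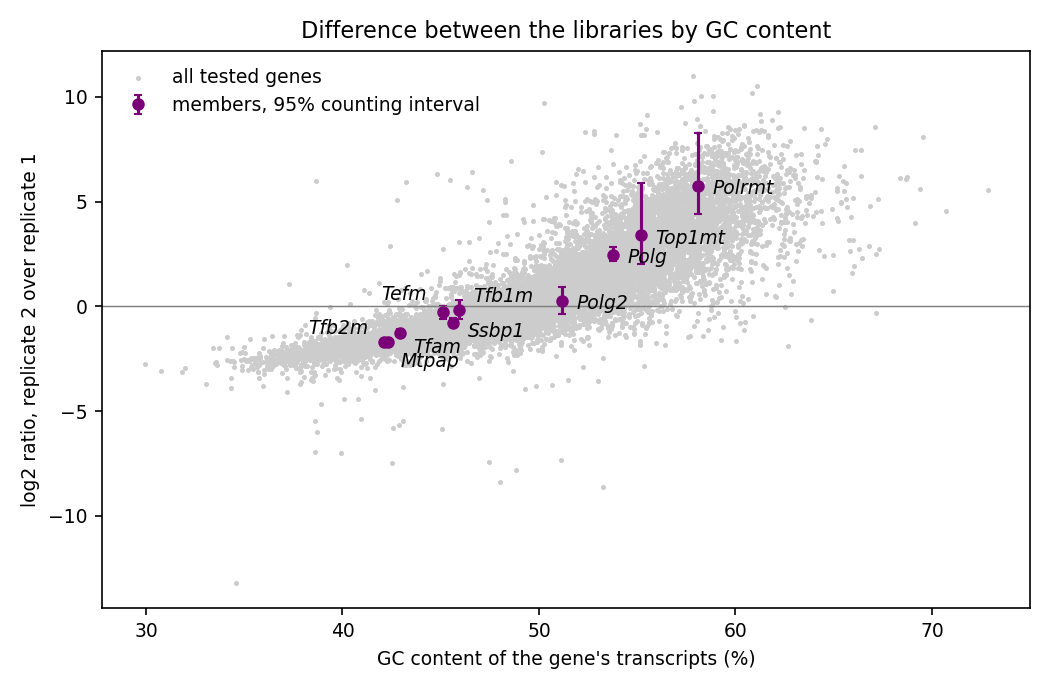
Log2 ratio of replicate 2 over replicate 1 (vertical axis) against GC content in percent (horizontal axis), for all tested genes in grey and the 10 members in purple with 95% exact counting intervals. The members run along the band of all genes, from Tfb2m at 42.1% and -1.71 to Polrmt at 58.1% and 5.75.

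The scaling of the libraries mattered less. The median log2 ratio over all tested genes was 0.21 with TMM, 0.11 with DESeq2 size factors and 0.35 with nuclear totals, and each member kept the sign of its ratio and its call under all 3.

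Ratios within a library set functional partners side by side without any scaling between libraries. They were taken as counts per effective length, with exact binomial 95% intervals. Tfb2m, the transcription factor, exceeded Tfb1m, the methyltransferase, 16.3-fold in replicate 1 (12.4 to 21.7) and 4.19-fold in replicate 2 (3.50 to 5.05). Polg exceeded its accessory subunit Polg2 3.04-fold (1.94 to 4.90) and 8.46-fold (6.83 to 10.6). On this scale both orders held in both libraries while the intervals of the sizes did not overlap. Over the lengths of the leading consensus transcripts, however, Polg was at 6.63 and Polg2 at 8.74 in replicate 1, the reverse order, and at 31.7 and 9.03 in replicate 2, and the mean log2 ratio went from 2.32 to 0.70. The 2 polymerases were ordered alike too, with Polg above Polrmt 3.40-fold in replicate 1 and 1.499-fold in replicate 2, although the value for replicate 1 rests on the 3 counts of Polrmt. With replicate 1 brought to the GC profile of replicate 2, the mean log2 ratio of Polrmt over Polg went from -1.15 to 0.13, so this order is not settled.

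Tfam, which coats the DNA, was 53.1-fold above Polrmt in replicate 1 (18.1 to 258) and 1.21-fold in replicate 2 (1.07 to 1.36). Tfb2m was 72.1-fold above Polrmt (24.6 to 350) and 1.53-fold (1.37 to 1.70). As measured, the initiation factors lay far above their polymerase in replicate 1 and close to it in replicate 2. Over the lengths of the leading consensus transcripts, Tfb2m was at 62.4, Tfam at 20.4 and Polrmt at 19.3 in replicate 2, so that only Tfam stayed close. With replicate 1 brought to the GC profile of replicate 2, its log2 ratios were 0.0097 for Tfam over Polrmt, in place of 5.68, and 0.28 for Tfb2m over Polrmt, in place of 6.12, beside 0.27 and 0.61 in replicate 2. Tfam against Ssbp1, the double-strand against the single-strand binding protein, changed order, with a ratio of 1.77 (1.53 to 2.05) in replicate 1 and 0.715 (0.633 to 0.810) in replicate 2. Over the lengths of the leading consensus transcripts it did not, since Tfam and Ssbp1 were at 56.8 and 160.3 in replicate 1 and at 20.4 and 80.1 in replicate 2. Polrmt against its elongation factor Tefm also changed order, from 0.0766 (0.0156 to 0.229) to 1.23 (1.06 to 1.42). With replicate 1 adjusted for GC content, its log2 ratio was 1.49 in place of -3.66, which put Polrmt above Tefm in both libraries. Over the lengths of the leading consensus transcripts Polrmt was instead below Tefm in both. The levels were 0.359 and 47.6 in replicate 1 and 19.3 and 33.5 in replicate 2. The replicate 1 values rest on the 3 counts of Polrmt, and this order is not settled.

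Ssbp1 exceeded Polg 8.84-fold (6.86 to 11.5) and 1.12-fold (1.01 to 1.25), and exceeded Twnk, the replicative helicase, 23.5-fold (17.1 to 32.8) and 2.59-fold (2.30 to 2.92). It was therefore the most abundant of these 3 replication genes in each library. Top1, the nuclear topoisomerase related to Top1mt, exceeded it 210-fold (71.8 to 1021) and 4.27-fold (3.47 to 5.30). Top3a, a topoisomerase that separates linked daughter circles, gave no stable order against Top1mt, with 1.34 (0.261 to 8.64) in replicate 1 and 0.526 (0.398 to 0.696) in replicate 2. Mtpap lay below Lrpprc, an RNA-binding protein needed for polyadenylation, and the ratio of Mtpap over Lrpprc was 0.555 (0.497 to 0.618) and 0.180 (0.162 to 0.201). Of the 12 pairs, 9 had the same order in both libraries, 10 with replicate 1 adjusted for GC content, and in 6 the mean log2 ratio was larger than its SD.

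**Figure D3:**
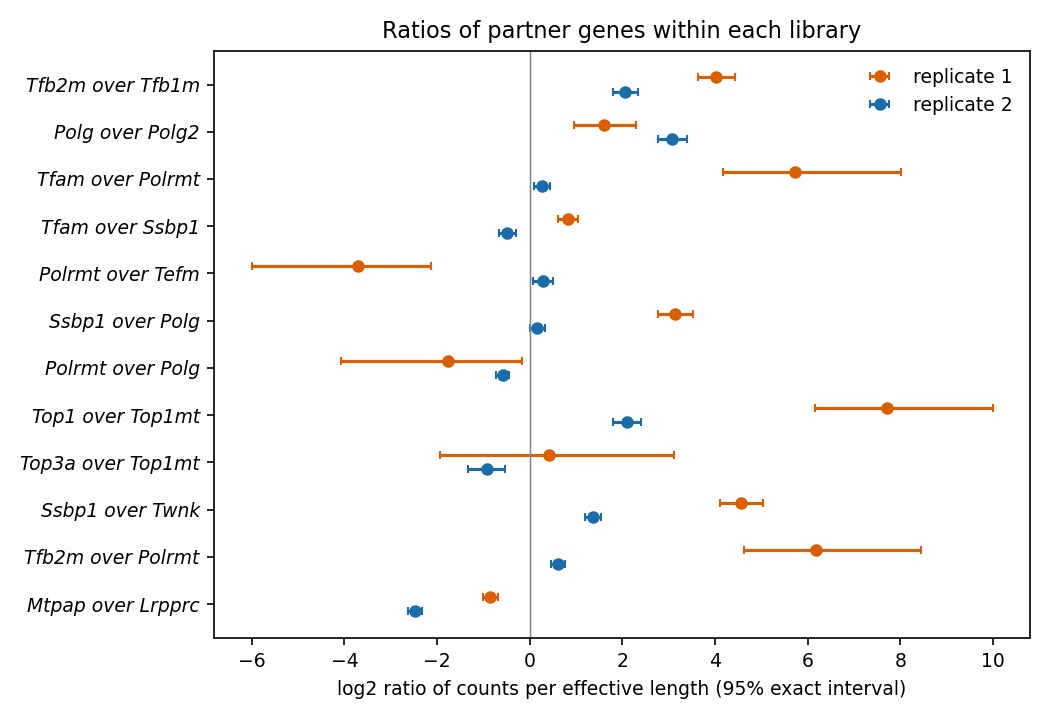
Log2 ratio of counts per effective length (horizontal axis) for 12 gene pairs, with the value of each library and its 95% exact binomial interval. Points left of 0 mean that the gene named second was the more abundant, and 3 pairs (Tfam over Ssbp1, Polrmt over Tefm and Top3a over Top1mt) lie on opposite sides of 0 in the 2 libraries.

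The transcript tables list 55 transcripts of the members, 28 with counts in replicate 1 and 41 in replicate 2. Tfb1m, Top1mt and Mtpap have 1 transcript each. Of the 7 members with several, 3 kept 1 leading transcript across the libraries, by share of the gene's abundance. These were Tfb2m-201 at 67.8% and 92.5%, Ssbp1-203 at 61.9% and 72.8%, and Tefm-201 at 48.2% and 85.9%. All 3 shares were higher in replicate 2. The second transcripts of Tfb2m and Tefm, Tfb2m-204 at 23.6% and Tefm-203 at 32.7% in replicate 1, were at 0% in replicate 2. Shares are estimates of the authors' program and carry no test.

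In the other 4 genes the leading transcript differed on these shares. Tfam-205 led Tfam at 51.2% in replicate 1 and held 17.0% in replicate 2, where Tfam-202 led at 34.6% after 34.7% in replicate 1. Tfam-201, the consensus coding transcript, held 14.2% and 31.0%. Polrmt-205 led Polrmt at 90.4% in replicate 1, on the 3 counts it shares with Polrmt-209, and Polrmt-201 led replicate 2 at 30.9%, with Polrmt-205 at 25.6% and Polrmt-209 at 20.1%. Shares from posterior mean estimates, also deposited, gave another leading transcript in replicate 2 for these 2 genes. On them Polrmt-205 led Polrmt in both libraries, at 40.2% and 24.3%, with Polrmt-201 at 23.7% in replicate 2. Tfam-201 at 29.0%, and not Tfam-202 at 25.9%, led Tfam in replicate 2. Polg-214, annotated as a retained intron, led Polg at 56.3% in replicate 1 and held 12.6% in replicate 2, while Polg-201, the consensus coding transcript, held 16.7% and 37.4%. In each of these 3 genes replicate 2 put more of the abundance on the consensus coding transcript.

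The same pattern was seen by counts. Transcripts in the consensus coding set (CCDS, coding sequences on which annotation groups concur) took 61.6% of Tfam's counts in replicate 1 (Wilson interval 57.4% to 65.7%) and 79.2% in replicate 2 (75.8% to 82.2%). In Polg they took 39.9% (30.4% to 51.5%) and 76.6% (74.1% to 78.9%), and in Tefm 61.5% (52.8% to 69.7%) and 90.6% (86.5% to 93.4%). These 3 pairs of intervals do not overlap. Tfb2m at 95.2% and 98.2% and Ssbp1 at 98.6% and 100% were almost wholly consensus coding in both. For Polrmt the share was 0% of 3 counts in replicate 1, too few to read, and 69.4% (65.4% to 73.3%) in replicate 2.

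**Figure D4:**
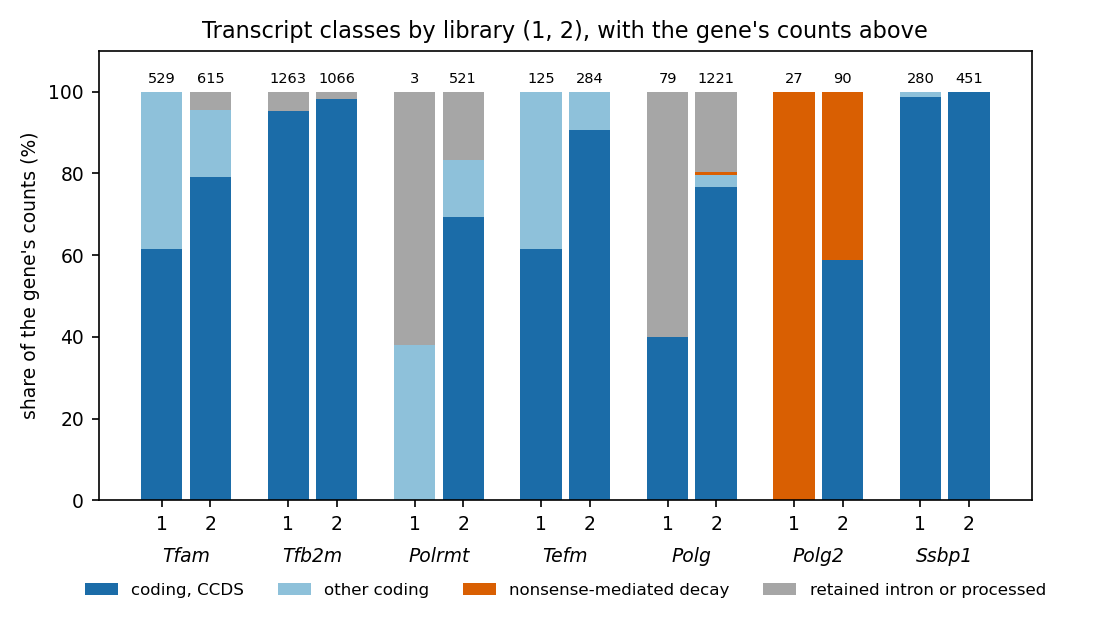
Share of each gene's counts in percent by transcript class, for the members with several transcripts, with replicate 1 on the left and replicate 2 on the right of each pair and the gene's counts above each bar. The consensus coding share is 39.9% and 76.6% in Polg and 61.6% and 79.2% in Tfam, and it is high in both libraries for Tfb2m and Ssbp1.

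Polg2 had the plainest switch. Polg2-204, annotated as a target of nonsense-mediated decay, the pathway that removes RNAs with an early stop, led replicate 1 at 63.7% and held 13.6% in replicate 2, and Polg2-206 of the same class held 22.4% and 9.49%. Polg2-201, the consensus coding transcript, was at 0% in replicate 1 and 69.2% in replicate 2. By counts, the decay class took 100% of 27 counts in replicate 1 and 41.1% of 90 in replicate 2, and the consensus coding class took 0% (0% to 12.5%) and 58.9% (48.6% to 68.5%). Posterior mean estimates gave a less complete switch. On them the decay class held 74.8% of the abundance in replicate 1 and 35.6% in replicate 2, and the consensus coding class 6.49% and 58.2%. Polg2-201 and Polg2-204 differ by a segment of 125 coding bases, chr11:106778959-106779083 on the minus strand, that the former holds and the latter skips. It is shown because its presence separates the 2 leading transcripts, with runs of at least 4 G or C bases in capitals.
Polg2 segment: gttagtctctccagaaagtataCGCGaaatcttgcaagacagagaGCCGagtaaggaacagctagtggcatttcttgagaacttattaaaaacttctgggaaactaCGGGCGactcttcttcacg
Transcripts that hold it had 2.23 and 60.05 counts in replicates 1 and 2, and those that skip it 24.77 and 29.94. The share with the segment was 8.26% (2.06% to 23.4%) and 66.7% (56.4% to 75.5%). At 44% GC the segment itself is not GC-rich. The transcripts also differ at their 3′ ends, and the tables do not say which reads decided between them.

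Tefm-203, which took 32.7% of Tefm in replicate 1 and 0% in replicate 2, holds a short stretch at chr11:80138068-80138081, minus strand, that is intron in Tefm-201. The stretch is printed because Tefm-201 lacks it. The transcripts also differ elsewhere, being 810 and 1309 bases long, and the tables do not say which reads decided between them.
Tefm-203 extension: ttcttcttctttag
Its 14 bases are pyrimidines up to a final ag, the form of the end of an intron.

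Because gene levels are divided by a length that follows this mix, the transcript estimates also move the gene levels. The effective length of Tfam was 916 bases in replicate 1 and 1555 in replicate 2. Over the length of the leading consensus transcript, Tfam was at 56.8 and 20.4, in place of 247 and 52.3 nuclear TPM, and Polg at 6.63 and 31.7, in place of 15.8 and 65.0. The direction between the libraries was kept in both genes. Counts and their ratios between the libraries do not use the length, whereas the ratios of gene pairs within a library do.

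The other genes of mitochondrial DNA upkeep were counted from a list of 53, of which 52 were found and 51 tested. In replicate 2, 17 were called higher, 20 lower and 14 neither, beside 38.4% higher and 27.2% lower over all tested genes, with a median log2 ratio of -0.08 beside 0.21. With the GC trend removed, 10 were higher and 1 lower, beside 14.2% and 8.55%, with a median of 0.32. The counts of the smaller groups below stand against the same shares. The lower one was Yy1, a general transcription factor named because of its value, which was at -2.03 before and -2.24 after the trend was removed and so did not follow it. GC content and log2 ratio had Pearson's r of 0.94 and Spearman's rho of 0.93 over the 51 genes.

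Among 11 genes of replication, 6 were higher, 2 lower and 3 not called (38.4% and 27.2% of all tested genes were higher and lower). Twnk, the helicase that unwinds the DNA ahead of POLG, rose from 5.96 to 28.2 nuclear TPM with a log2 ratio of 2.45, close to the 2.47 of Polg, and stayed called with the GC trend removed at 1.08, beside 1.06 for Polg. Endog, a mitochondrial nuclease, had 0 counts in replicate 1 and 492 in replicate 2, at least 59.2-fold higher when the floor of 3 counts is used for replicate 1. Top2b, a type II topoisomerase, had 222 and 38.0 nuclear TPM and a log2 ratio of -2.29, which became -0.43 with the trend removed. Of the 5 termination factor relatives, 4 were lower, among them Mterf3 (391 and 64.2 nuclear TPM, log2 ratio -1.86) and Mterf2 (109 and 33.05, -1.499), and 0 were called once the trend was removed. Mterf1a and Mterf1b are near-identical copies, so their separate counts are uncertain.

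Of 17 genes of mitochondrial RNA processing, 3 were higher, 7 lower and 7 not called, beside the same 38.4% and 27.2%. Grsf1, an RNA granule protein, had 649 and 204 nuclear TPM (log2 ratio -1.36, or -0.04 with the GC trend removed). Hsd17b10, a subunit of the tRNA-processing RNase P, had 135 and 233. Lrpprc at 136 and 111 had a log2 ratio of -0.08 and was not called. Of 3 nucleoid and turnover genes, 2 were higher and 1 was not called. Lonp1, the matrix protease that degrades TFAM, was among the higher ones, at 6.51 and 123 nuclear TPM with a log2 ratio of 4.45. Clpx, the other matrix protease subunit named by level, had 329 and 90.1 and was not called at -0.75. With the GC trend removed, Lonp1 was at 1.04 and still called, and Clpx at 0.78 and not called.

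Of 8 genes of nucleotide supply, 3 were higher, 3 lower, 1 not called and 1 untested. Sucla2 and Suclg1 encode subunits of succinyl-CoA ligase, which supports the mitochondrial nucleotide pool. As measured they moved apart, Sucla2 from 2481 to 788 nuclear TPM (log2 ratio -1.48) and Suclg1 from 252 to 556 (1.35). With the GC trend removed, Sucla2 was at 0.08 and not called, and Suclg1 at 1.14 and called higher. Tymp, the untested gene, had 0 and 14.07 counts. Of 8 nuclear regulators of these genes, 3 were higher, 4 lower and 1 not called. Ppargc1a, the coactivator of mitochondrial biogenesis, had 182 and 68.5 nuclear TPM (-1.47), and Gabpa, a factor that acts on Tfam and Tfb2m promoters, had 124 and 37.0 (-1.64). Their ratios were 0.24 and 0.36 with the GC trend removed, and neither was called.

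**Figure D5:**
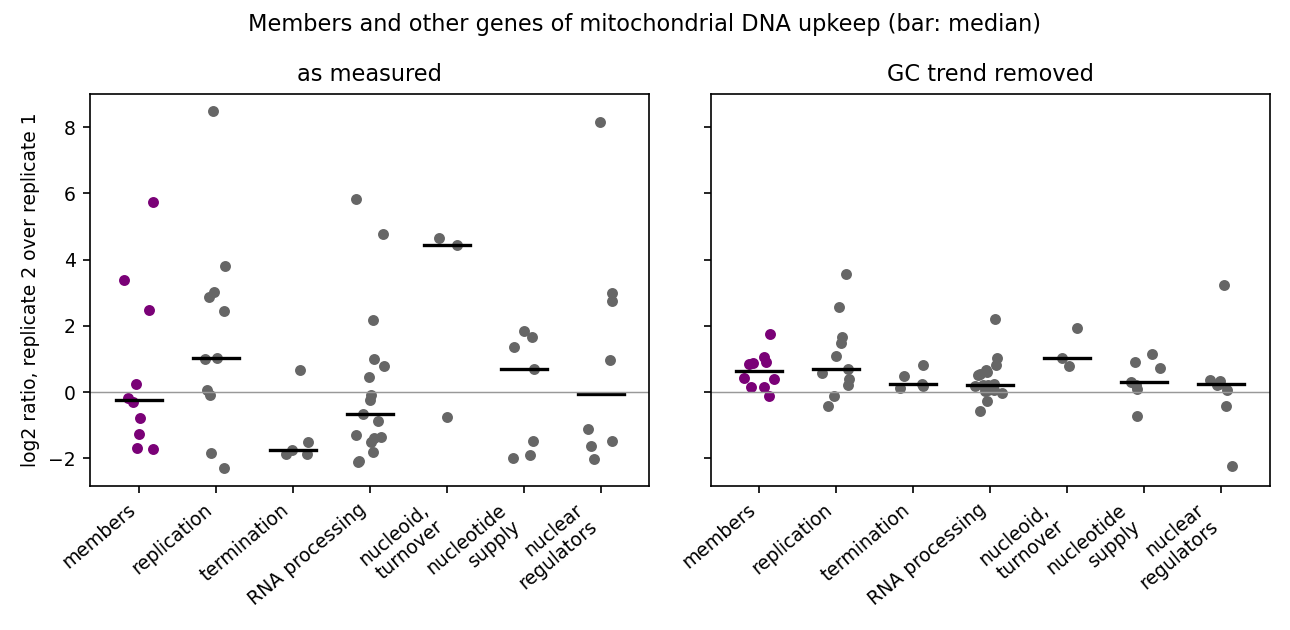
Log2 ratio of replicate 2 over replicate 1 for each tested member and each tested gene of the other groups, as measured (left) and with the GC trend removed (right), with a bar at each group's median. The members spread from -1.71 to 5.75 on the left and from -0.11 to 1.76 on the right.

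Several members overlap genes on the opposite strand, and no source used here states that strand was used in counting. Whether reads from both strands were told apart is therefore not known. The overlaps below are of whole gene spans, introns included. Tiam2 overlaps Tfb1m over 12089 bases and had 19 and 85 counts, a sizeable number beside the 55 and 136 of Tfb1m. Fanci overlaps Polg over 4034 bases with 3 and 4 counts, and Milr1 overlaps Polg2 over 542 bases with 1 and 6, few beside the members' own. The opposite-strand genes Cldn20 at Tfb1m, Gm15480 at Tfb2m, Gm15945 at Top1mt and Gm26865 at Mtpap had 0 counts in both libraries. On its own strand, Mtpap overlaps AC138768.3 over 5132 bases in release M21, a gene for which no count was used here, so reads of it could be counted as Mtpap. The deposited posterior SD of the count, the uncertainty left by reads that fit more than 1 gene, was 0 in both libraries for 9 members. These were all but Tfb2m, so by this measure none of their counts was shared with another counted gene, Tiam2 and Fanci included. For Tfb2m it was 12.2 and 6.39 counts.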

How the data were processed

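The authors estimated expected counts per gene and transcript on mm10 with annotation M4, per the deposited file descriptions. TPM scaled to a fixed sum per library was also deposited, as was FPKM. Transcript shares were deposited as a percent of the abundance of the gene. Aligner, quantification program and strand setting: not given in the sources used here.

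The members, lists, pairs and tests were chosen with earlier results of these data known. Identifiers were matched without version to GENCODE M21, which gave 42462 of 43346 genes a symbol. GC content came from the M21 sequences, and 44 of the 55 member transcripts had the same length there as deposited. Nuclear copies of mitochondrial genes had at least 95% identity over 90% of their length by blastn 2.17.0. Counts were rounded for the binomial test in edgeR 4.0.16 (R 4.3.3). A quasi-likelihood fit was not possible, since 2 libraries without a second group leave no residual degrees of freedom. The GC trend was the median log2 ratio in 50 bins. Named from the list of other genes were the 2 highest per group, genes at 0 counts and the partners in pairs. On counts simulated for 13231 genes without spread beyond counting error, 100% of 50 genes changed 2.5-fold and 2% of 50 changed 1.5-fold were called, with 1 false call. The changed genes were drawn from nuclear genes with a mean of at least 100 counts per library expected, so genes with fewer counts were not covered. At 1.5-fold the 2-fold limit itself keeps most genes from being called. Alternatives covered scaling with DESeq2 1.42.0, count filters, pseudocounts, posterior estimates, GC content and length. Python 3.11.15 was used for the rest.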

Additional observations from a re-analysis of the deposited data

How the results depend on the processing

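With the GC trend removed, the members called lower went from 3 to 0, the other pathway genes from 17 to 10 higher and from 20 to 1 lower, and all genes from 5060 to 1869 higher and from 3582 to 1125 lower. The log2 ratio changed sign in Tfam (-1.25 to 0.43), Tfb1m (-0.17 to 0.91), Tfb2m (-1.71 to 0.14), Polg2 (0.25 to -0.11), Ssbp1 (-0.78 to 0.40), Tefm (-0.29 to 0.87) and Mtpap (-1.70 to 0.16), and the cause was not tested. With the trend with effective length removed, 6 of 10 members were lower, as Ssbp1 (-2.62), Tefm (-1.60) and Tfb1m (-1.41) passed. Of all 13182 tested genes, 3394 were lower in that setting. The members called higher stayed at 3, beside 4741 of all tested genes. With replicate 1 brought to the GC profile of replicate 2, the mean log2 ratio turned sign in Polrmt over Polg (-1.15 to 0.13), Polrmt over Tefm (-1.68 to 0.89) and Tfam over Ssbp1 (0.17 to -0.084), and moved toward 0 in Tfam over Polrmt (2.98 to 0.14) and Tfb2m over Polrmt (3.37 to 0.44). The length of the leading consensus transcript was an alternative chosen after seeing the data. With it, the mean log2 ratio of Polrmt over Polg was -2.29 and that of Polrmt over Tefm -3.745. That of Polg over Polg2 went from 2.32 to 0.70 and that of Tfam over Ssbp1 from 0.17 to -1.73. Under DESeq2 size factors, nuclear totals, no count filter, a minimum of 100 counts, posterior mean counts, an assumed coefficient of variation of 0.2 and the adjusted p alone, the counts of called members, pathway genes and all genes stayed within 1.5 times. No paired analysis was possible because there is 1 group. Polrmt and Top1mt had 3 counts each in replicate 1, which limits the precision of their values there.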
